A study of Mus musculus with 8 samples.

Results

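The Tdpoz genes are a mouse family of 5 members considered here, Tdpoz1 to Tdpoz5, which encode proteins with a TRAF domain and a POZ (BTB) domain. Members were found by gene symbol among the 65955 transcript clusters (array rows) used, and a row counted for a member only if it named that gene alone. By this rule 4 of the 5 members had a row of their own, among 30701 genes with such a row: Tdpoz1 (TC0300002425.mm.1), Tdpoz2 (TC0300002424.mm.1), Tdpoz3 (TC0300000856.mm.1) and Tdpoz4 (TC0300000855.mm.1). Tdpoz5 was named only on rows shared with Tdpoz7, and those rows are given apart from the members.

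RNA was measured on 8 Affymetrix whole-transcript arrays, each holding total RNA of a pool of 100 late 2-cell mouse embryos. The zygotes came from B6C3F1 x CD1 matings after hormone stimulation with PMSG and hCG, were taken from the oviduct and were cultured in KSOM(aa). There were 4 groups of 2 pools: non-manipulated embryos, which stayed in the incubator, and embryos whose ooplasm was injected at the mid-pronuclear stage with Trim21 mRNA, with Trim21 mRNA and anti-COPS3 antibody, or with anti-COPS3 antibody alone. TRIM21, a ligase that recognises antibodies in the cytosol, marks an antibody and its bound protein for degradation. The target COPS3 belongs to the COP9 signalosome, an enzyme complex that takes the ubiquitin-like protein NEDD8 off cullin ubiquitin ligases. Per the protocol the embryos were in culture for 28 h after injection, whereas the age label gives 24 h in vitro and 1 day post coitum. The protocol describes no injection for the antibody-alone group, which is known from its sample titles. Cleavage was labelled normal in the non-manipulated and Trim21 mRNA groups and stunted, with many zygotes still undivided, in both antibody groups. The groups have no injection of a control antibody, and the non-manipulated embryos were not injected at all. A group's 2 pools came from 1 day, a different day for each group, so day and group cannot be told apart. The p-values measure the spread between same-day pools, shared over all 4 groups. A p-value thus also depends on arrays of groups outside its comparison. Leaving out such an array changes the p-value but not the difference. Cops3 mRNA levels do not show whether the protein was removed.

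TDPOZ proteins resemble SPOP, a substrate adaptor whose TRAF-type (MATH) domain binds a target protein and whose BTB domain binds the scaffold CUL3 of a ubiquitin ligase. Cullin ligases are switched on by attachment of NEDD8 and are cycled by its removal through the COP9 signalosome. In mice the Tdpoz genes lie in a cluster with relatives and pseudogenes on chromosome 3, and their transcripts are known from oocytes and from embryos around the activation of the embryonic genome. In bulk RNA of pooled embryos, fewer embryos or cells with a transcript and less of it per cell cannot be told apart.

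The annotated start regions of the members are shown as a description, with the windows that are near-identical. Their part in the differences between members was not tested. RefSeq tables of build GRCm38.p6 held a window of 250 bases before to 50 bases after the start for 3 of the 5 members: Tdpoz1 at chr3:93676234-93676533 (minus strand), Tdpoz4 at chr3:93796148-93796447 (plus strand) and Tdpoz5 at chr3:93961265-93961564 (minus strand). Tdpoz2 and Tdpoz3 were not matched. Each sequence reads 5′ to 3′ on the gene's strand. Capitals mark TATATAA in Tdpoz1, and in Tdpoz4 and Tdpoz5 the longest run of bases that both windows share, 14 bases.
Tdpoz1: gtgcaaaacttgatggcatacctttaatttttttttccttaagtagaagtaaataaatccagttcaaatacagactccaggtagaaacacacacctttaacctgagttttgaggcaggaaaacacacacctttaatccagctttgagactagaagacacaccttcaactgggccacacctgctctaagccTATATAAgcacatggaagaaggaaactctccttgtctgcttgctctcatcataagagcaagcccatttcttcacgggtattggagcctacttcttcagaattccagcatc
Tdpoz4: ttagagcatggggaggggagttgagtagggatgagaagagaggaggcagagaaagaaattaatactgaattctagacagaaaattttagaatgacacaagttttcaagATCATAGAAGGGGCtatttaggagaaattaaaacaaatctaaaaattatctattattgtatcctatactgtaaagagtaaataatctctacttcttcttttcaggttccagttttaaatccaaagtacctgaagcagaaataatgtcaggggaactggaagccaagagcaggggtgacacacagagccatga
Tdpoz5: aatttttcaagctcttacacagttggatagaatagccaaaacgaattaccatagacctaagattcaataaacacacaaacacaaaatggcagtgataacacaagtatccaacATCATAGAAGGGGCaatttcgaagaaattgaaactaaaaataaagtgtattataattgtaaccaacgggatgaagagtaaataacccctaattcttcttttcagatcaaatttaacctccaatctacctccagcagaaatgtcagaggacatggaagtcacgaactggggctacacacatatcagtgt
The windows, as annotated, fell into unlike kinds. After the start, those of Tdpoz4 and Tdpoz5 begin with ATG, the triplet of a start codon, and that of Tdpoz1 does not. The annotated starts may thus lie at different places in the genes. Windows that do not align therefore do not show that the gene copies differ. Those of Tdpoz4 and Tdpoz5 aligned over 205 columns with 76.1% identical bases, and the shared run began 142 and 138 bases before the start. The Tdpoz1 window aligned with that of Tdpoz4 over only 33 columns and with that of Tdpoz5 over 12. It was instead near-identical to that of the relative Tdpoz9, with 272 of 273 aligned columns identical (99.6%), and shared 232 of 270 (85.9%) with a start of Tdpoz8. Another start of Tdpoz8 matched Tdpoz4 at 284 of 300 columns (94.7%). The windows of Tdpoz5 and Tdpoz7 differed at 1 of 300 positions, G179A, with Tdpoz5's base first and positions counted from 1 at the 5′ end of the window, which is the pair of genes that the array's rows did not separate.

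Motifs were searched on both strands, as a description. The DUX-type motif, TGATT and ATCA with any 2 bases between, was in 68 of 32851 RefSeq windows (0.207%) and TATAAA in 4473 (13.6%), and neither was in the window of Tdpoz1, Tdpoz4 or Tdpoz5. The Tdpoz4 and Tdpoz5 windows may not cover a promoter, so a missing motif there does not describe the promoters of these genes. TATATAA, looked for after the windows were read, was in 1065 windows (3.24%), among them Tdpoz1 with its first base 60 bases before the start. Of the relatives, Tdpoz8, Tdpoz9 and Spopfm2 also held it, 29, 33 and 31 bases before the start.

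Before the members are compared, some facts about the arrays bear on every value. Deposited log2 levels had array medians of 4.75 to 5.29 and SDs of 2.27 to 2.71. The narrowest distributions were those of both Trim21 mRNA and anti-COPS3 antibody pools and of antibody-alone replicate 1, which had 169, 151 and 136 rows tied at the array's highest value, against 1 row on each other array. The pools of antibody alone were the least alike (r = 0.9558 over genes, with 4615 genes over 2-fold apart), and the other groups had r of 0.9857 to 0.9975 and 49 to 809 such genes. Trim21 itself followed the labels: 6.27 and 5.65 in non-manipulated pools, 9.77 and 10.14 with Trim21 mRNA, 10.40 and 10.30 with Trim21 mRNA and antibody, and 6.76 and 6.37 with antibody alone. The mean level of 13 measured oocyte and zygote markers was 12.19 to 13.62 on the 8 arrays, and that of the other marker lists was 4.52 to 6.25 (12 markers measured of cumulus and granulosa cells, 9 of sperm, 5 of blood and immune cells and 6 of the oviduct). The Tdpoz members lay between percentiles 88.3 and 98.7 of all rows of their array. A list mean can hide a single marker: Epcam of the oviduct list had group means of 8.35 to 10.68. Levels of single genes are not compared with each other, since each row has its own probes. The list means and percentiles carry that limit too.

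Differences between groups were tested with limma across all 30701 genes, with Benjamini-Hochberg adjustment, and a gene is called where the adjusted p is under 0.05. Tdpoz3 was the member that rose with the antibody in both settings, with and without Trim21 mRNA. Tdpoz2 was highest with antibody alone and lowest with Trim21 mRNA and antibody, and it fell between those groups. Tdpoz4 was not called in any comparison of the deposited values, and Tdpoz1 was called only against non-manipulated embryos, in the pools that received both agents. Trim21 mRNA without antibody gave no called member.

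**Figure D1:**
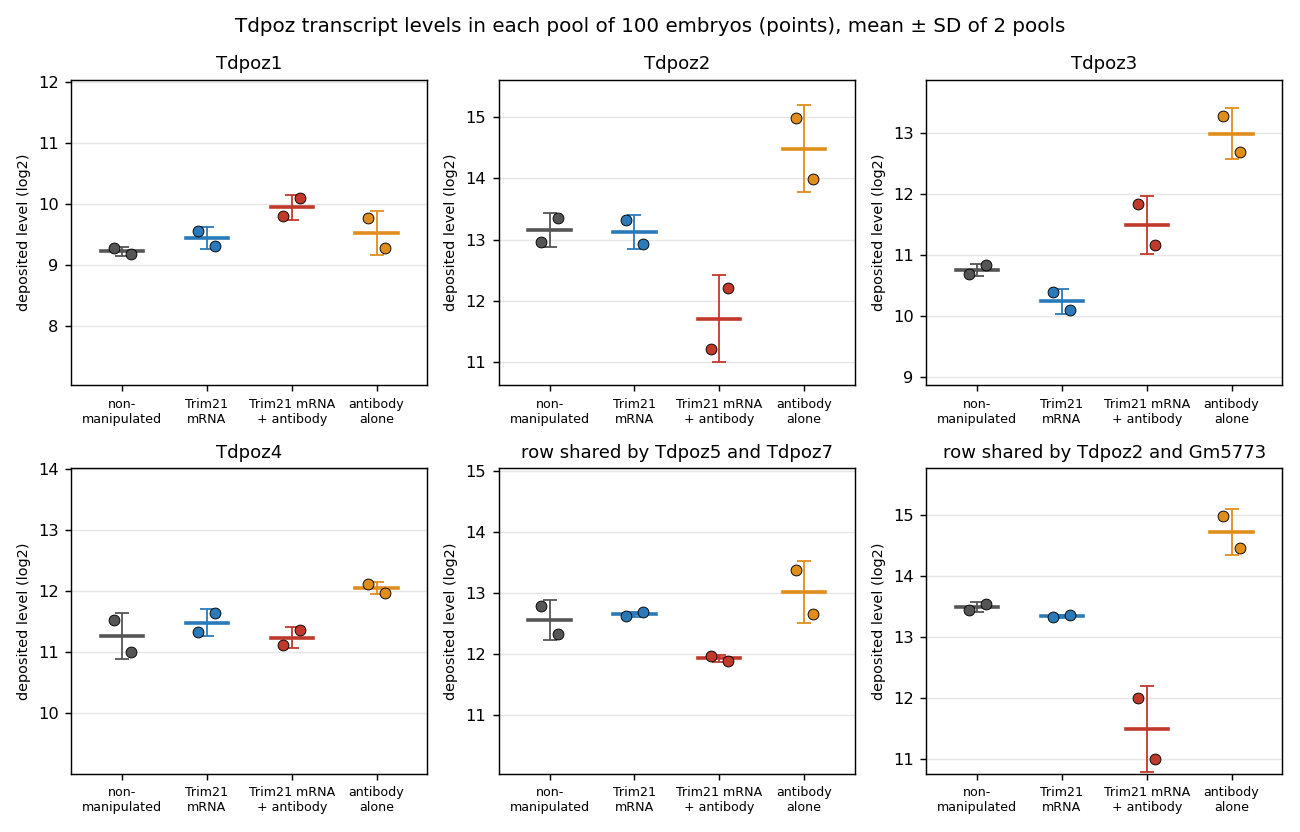
Deposited log2 level (y axis, the same span in each panel) of each pool of 100 embryos (points) in the 4 groups (x axis), with the mean (line) and SD (bars) of 2 pools, for the 4 members with their own row and for the rows shared by Tdpoz5 and Tdpoz7 and by Tdpoz2 and Gm5773. Tdpoz3 was above 12 only in the antibody-alone pools, and Tdpoz2 ran from 11.20 with Trim21 mRNA and antibody to 14.99 with antibody alone.

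Tdpoz3 had levels of 10.69 and 10.83 in the non-manipulated pools, 10.39 and 10.10 with Trim21 mRNA, 11.83 and 11.16 with Trim21 mRNA and antibody, and 13.28 and 12.69 with antibody alone. The groups did not overlap, and they ranked antibody alone, Trim21 mRNA and antibody, non-manipulated, Trim21 mRNA. Of the neighbours in this order, only the highest pair had a called difference. Antibody alone was 2.22 ± 0.29 (log2, SE, 2 pools a group) above non-manipulated embryos, a 4.68-fold rise (limma adjusted p = 0.0074). With Trim21 mRNA in both groups, the antibody pools were 1.25 ± 0.29 above those without it, or 2.38-fold (limma adjusted p = 0.022). Tdpoz3 was thus the 1 of 4 members called higher in either comparison, beside 2.76% of all genes called higher without Trim21 mRNA and 8.73% with it. No member was called lower in them (7.29% and 14.5% of all genes).

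The rise of Tdpoz3 without Trim21 mRNA was 1.93 (limma adjusted p = 0.0078) without antibody-alone replicate 1 and 2.52 (0.0013) without replicate 2. The call was lost without non-manipulated replicate 1 (limma adjusted p = 0.092) or replicate 2 (0.074), and with only the groups compared in the fit (0.072). With Trim21 mRNA the call was lost without non-manipulated replicate 1 or 2 (both 0.051), without Trim21 mRNA replicate 1 (0.08) or 2 (0.14), without Trim21 mRNA and antibody replicate 1 (difference 0.92, limma adjusted p = 0.094), and after median centring of the arrays (0.92, 0.07). The oocyte and zygote markers were also high with antibody alone: their mean level was 13.09 and 13.62 there, 12.72 and 12.69 in non-manipulated pools, 12.43 and 12.19 with Trim21 mRNA and 13.02 and 12.73 with both agents. Of these 13 markers, 5 were called higher in antibody alone against non-manipulated embryos and none lower, beside 2.76% and 7.29% of all genes. That 5 became 0 after median centring, with array weights or with only the groups compared. All genes called higher were 352, 233 and 0 there, against 846 in the main fit. With all rows the 5 became 3, beside 525 of all genes. With Trim21 mRNA, 4 markers were called higher and 1 lower, beside 8.73% and 14.5%. The 4 became 9 after quantile normalization or cyclic loess, beside 3212 and 2891 of all genes called higher, against 2679. With only the groups compared it was 7 (5262 of all genes), and after median centring 2 (876). The marker counts and those of all genes moved too with an array left out. The part of the markers in the Tdpoz3 result was not tested.

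Antibody alone against Trim21 mRNA, 2 injected groups, gave the largest Tdpoz3 difference of the 6 comparisons between pairs of groups, 2.74 ± 0.29 or 6.68-fold (limma adjusted p = 0.0023). It was called in each of the 18 alternatives run. Here too Tdpoz3 was the 1 member called, beside 5.43% of all genes called higher. Among the pools with antibody, those that also had Trim21 mRNA were 2.81-fold lower, and the level fell by 1.49 ± 0.29 on the log2 scale (limma adjusted p = 0.016). That call was lost after quantile normalization (limma adjusted p = 0.095) or cyclic loess (0.052), with only the groups compared (0.096), with array weights (0.094) and without Trim21 mRNA and antibody replicate 2 (0.088).

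Tdpoz2 stood at 12.96 and 13.35 in non-manipulated pools and at 13.32 and 12.92 with Trim21 mRNA. It stood at 11.20 and 12.21 with Trim21 mRNA and antibody, and at 14.99 and 13.99 with antibody alone. The non-manipulated and Trim21 mRNA pools overlapped, every antibody-alone pool was above them and every pool with both agents was below them. Between the antibody groups the level fell by 2.78 ± 0.43 on the log2 scale where Trim21 mRNA was present, or 6.89-fold (limma adjusted p = 0.0067). This call held in each of the 18 alternatives run, at differences of -3.29 to -2.21 and adjusted p of 0.0022 to 0.044. Tdpoz2 and Tdpoz3 were the 2 of 4 members called lower in this comparison, beside 10.5% of all genes. The members' median difference was -1.15 and that of all genes 0.04. No member was called higher (4.37% of all genes).

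Against their own controls, the Tdpoz2 differences of both antibody groups had opposite signs and did not pass the test. With Trim21 mRNA the antibody difference was -1.42 ± 0.43 (95% interval -2.45 to -0.38, limma adjusted p = 0.058), and without it 1.34 ± 0.43 (0.30 to 2.37, 0.11). The first was called in 7 of 18 alternatives, among them median centring (-1.75, limma adjusted p = 0.017), without antibody-alone replicate 1 or 2 (both 0.017) and without Trim21 mRNA and antibody replicate 2 (-1.92, 0.048). The second was called without antibody-alone replicate 2 (1.84, limma adjusted p = 0.015). The difference between the antibody effects, the interaction, was -2.75 ± 0.61 (limma adjusted p = 0.064), beside 4.08% of all genes called. It was called in 4 of 17 alternatives: after median centring (limma adjusted p = 0.048), with the filter on low levels (0.043) and without antibody-alone replicate 1 (-2.25, 0.044) or replicate 2 (-3.25, 0.01). No member was called for the interaction in limma, and 2 of 4 (Tdpoz2 and Tdpoz4) had an unadjusted p under 0.05, beside 14.7% of all genes.

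A row that names both Tdpoz2 and the predicted gene Gm5773 showed the same order of groups. Its levels were 13.44 and 13.55 in non-manipulated pools, 13.33 and 13.36 with Trim21 mRNA, 12.00 and 11.00 with Trim21 mRNA and antibody, and 14.99 and 14.46 with antibody alone. No pool with both agents reached any other pool. In the fit of all rows its antibody difference with Trim21 mRNA was -1.84 ± 0.34 (limma adjusted p = 0.012), without it 1.23 ± 0.34 (0.095), and the interaction was -3.07 ± 0.48 (0.03). Probes of this row cannot say which of its genes was measured, so it is not counted for Tdpoz2.

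Tdpoz4 levels were 11.53 and 11.00 in non-manipulated pools, 11.32 and 11.64 with Trim21 mRNA, 11.11 and 11.36 with Trim21 mRNA and antibody, and 12.11 and 11.97 with antibody alone. Only the antibody-alone pools lay apart from the rest, above all the others. They were 0.78 ± 0.23 above non-manipulated embryos (95% interval 0.23 to 1.32, limma adjusted p = 0.083). With Trim21 mRNA the antibody difference was -0.24 ± 0.23 (-0.79 to 0.30, limma adjusted p = 0.44). Pools with both agents differed from antibody alone by -0.80 ± 0.23, which was not called either (limma adjusted p = 0.062). The first of these differences was called without antibody-alone replicate 2 (0.84, limma adjusted p = 0.041), and the last after median centring (-0.98, 0.036) and with the filter on low levels (0.046). Of the 4 members, Tdpoz2, Tdpoz3 and Tdpoz4 had both antibody-alone pools above both non-manipulated pools, beside 39.6% of all genes. The same 3 had both pools with both agents below both antibody-alone pools, beside 22.4%.

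Tdpoz1 levels were 9.27 and 9.17 in non-manipulated pools, 9.56 and 9.31 with Trim21 mRNA, 9.80 and 10.09 with Trim21 mRNA and antibody, and 9.77 and 9.27 with antibody alone. The pools with both agents were the highest, and the antibody-alone pools spanned the Trim21 mRNA pools. Tdpoz1 was 0.72 ± 0.22 higher with both agents than in non-manipulated embryos, or 1.65-fold (limma adjusted p = 0.045). The antibody difference was 0.51 ± 0.22 with Trim21 mRNA (95% interval -0.01 to 1.03, limma adjusted p = 0.14) and 0.30 ± 0.22 without it (-0.22 to 0.82, 0.37). The former was called without antibody-alone replicate 1 or 2 (both limma adjusted p = 0.036), after quantile normalization (1.18, 0.017) and after cyclic loess (1.07, 0.037). By group means, the order of its groups was unlike that of Tdpoz2, Tdpoz3 and Tdpoz4, which were all highest with antibody alone. Neighbours in the order had no called difference for Tdpoz1, Tdpoz2 or Tdpoz4.

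Both agents together against non-manipulated embryos also gave a fall of Tdpoz2, by 1.45 ± 0.43 on the log2 scale (limma adjusted p = 0.044). So 1 member was called higher and 1 lower, beside 15.1% and 16.6% of all genes. Both calls were close to the threshold. The Tdpoz1 call was lost in 10 of 18 alternatives, where the difference was 0.26 after median centring (limma adjusted p = 0.28). The Tdpoz2 call was lost in 8, with differences of -0.53 after quantile normalization (limma adjusted p = 0.51) and -0.78 after cyclic loess (0.32). The arrays whose removal ended a call were each of the 4 arrays of the non-manipulated and Trim21 mRNA groups for both genes, with adjusted p of 0.075 to 0.2. Without Trim21 mRNA and antibody replicate 1 the p was 0.067 for Tdpoz1 and 0.17 for Tdpoz2, and without replicate 2 it was 0.19 for Tdpoz1. The difference of Tdpoz3 was 0.74 ± 0.29 (limma adjusted p = 0.091), called without antibody-alone replicate 1 or 2 (both 0.037), with array weights (0.029), after quantile normalization (1.59, 0.0072) and after cyclic loess (1.44, 0.0097). Tdpoz4 differed by -0.03 ± 0.23 (0.92).

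Trim21 mRNA without antibody called none of the 4 members in limma, and none had an unadjusted p under 0.05, beside 6.28% of all genes. Over all genes 1 was called, 0.00326%. The members' differences were 0.22 for Tdpoz1, -0.04 for Tdpoz2, -0.52 for Tdpoz3 and 0.22 for Tdpoz4. Their 95% intervals ran from -0.31 to 0.74, -1.07 to 1.00, -1.20 to 0.17 and -0.33 to 0.76.

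**Figure D2:**
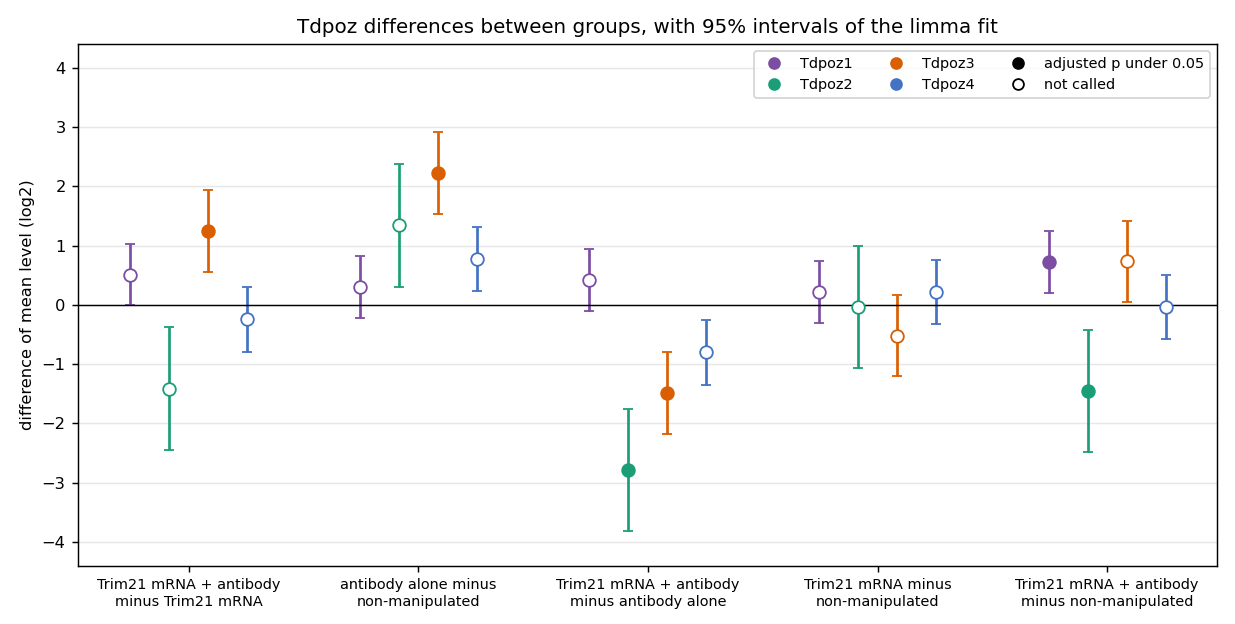
Difference of mean log2 level (y axis) for the 4 members in 5 comparisons of groups (x axis), with 95% intervals of the limma fit (bars). Filled points have an adjusted p under 0.05: Tdpoz3 is filled in both antibody comparisons, and Tdpoz2 reaches -2.78 between the antibody groups.

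The spread between pools differed among members. Replicate 1 minus replicate 2 of antibody alone was 0.50 for Tdpoz1, 1.00 for Tdpoz2, 0.59 for Tdpoz3 and 0.14 for Tdpoz4. With Trim21 mRNA and antibody the gaps were -0.29, -1.01, 0.67 and -0.25. In the non-manipulated and Trim21 mRNA groups no gap was larger than 0.53, the gap of Tdpoz4 in non-manipulated pools. The gap of Tdpoz2 was thus the widest of the 4 in both antibody groups.

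The scaling of the arrays moved the antibody values of all 4 members, and 3 of the 4 antibody arrays had the highest medians and the narrowest distributions. The median of all genes was 0.21 higher with the antibody in the presence of Trim21 mRNA and 0.18 higher in its absence, while the members' medians were 0.13 and 1.06. Tdpoz3 differed by 2.10 after quantile normalization, 1.95 after cyclic loess and 0.92 after median centring with Trim21 mRNA, and by 2.42, 2.45 and 1.94 without it. Tdpoz2 kept its signs, with -0.57, -0.74 and -1.75 with Trim21 mRNA and 1.68, 1.51 and 1.04 without it. Tdpoz4 turned its sign with Trim21 mRNA, to 0.53 after quantile normalization and 0.46 after cyclic loess, and neither value was called (limma adjusted p = 0.23 and 0.30).

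**Figure D3:**
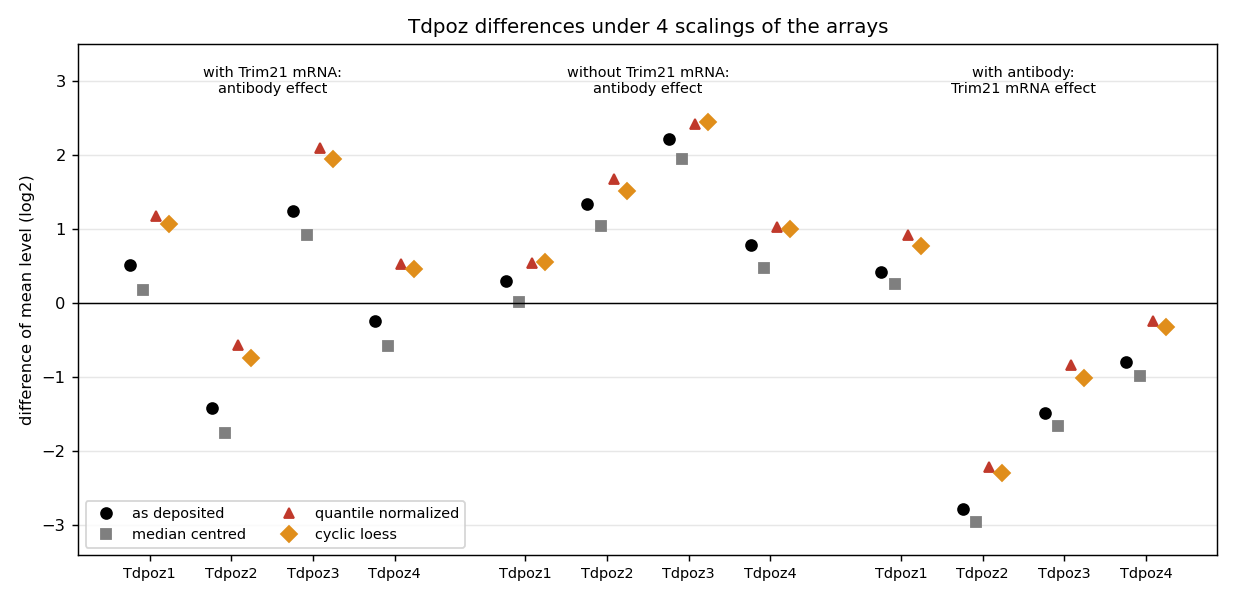
Difference of mean log2 level (y axis) of the 4 members (x axis) under 4 scalings of the arrays (symbols), for the antibody effect with and without Trim21 mRNA and for the Trim21 mRNA effect with antibody. Tdpoz3 lies above 0 and Tdpoz2 below 0 with Trim21 mRNA under each scaling, whereas Tdpoz4 moves from -0.24 as deposited to 0.53 after quantile normalization.

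Tdpoz5 could not be read alone. A pair of rows that name Tdpoz5 and Tdpoz7 held identical values: 12.79 and 12.32 in non-manipulated pools, 12.62 and 12.68 with Trim21 mRNA, 11.97 and 11.88 with both agents, and 13.37 and 12.66 with antibody alone. The pools with both agents were the lowest and the antibody-alone pools reached highest, but one of the latter lay among the control pools. In the fit of all rows no comparison of the rows was called. The antibody difference was -0.72 ± 0.27 with Trim21 mRNA (limma adjusted p = 0.12) and 0.46 ± 0.27 without it (0.32), and Trim21 mRNA with antibody against antibody alone gave -1.09 ± 0.27 (0.055).

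Among relatives outside the 5 members, Spop, the CUL3 adaptor, had levels of 10.21 and 10.29 in non-manipulated pools, 9.79 and 9.49 with Trim21 mRNA, 8.93 and 8.34 with Trim21 mRNA and antibody, and 11.60 and 10.91 with antibody alone. No groups overlapped, and the highest and lowest groups were those of Tdpoz2. From antibody alone to both agents Spop fell by 2.62 ± 0.29 on the log2 scale, or 6.15-fold (limma adjusted p = 0.0018). Its antibody effect was a fall of 1.00 ± 0.29 with Trim21 mRNA (limma adjusted p = 0.049) and a difference of 1.00 ± 0.29 without it (0.08). The fall was not called after quantile normalization (-0.33, limma adjusted p = 0.46) or cyclic loess (-0.41, 0.38), with all rows (0.065) or a trended robust prior (0.06), when an array of the non-manipulated or Trim21 mRNA group was left out (0.097 to 0.25), or without Trim21 mRNA and antibody replicate 2 (-0.71, 0.22). The difference without Trim21 mRNA was called after quantile normalization (1.26, limma adjusted p = 0.044) or cyclic loess (1.25, 0.043), and without antibody-alone replicate 2 (0.0089). The interaction of -2.01 ± 0.41 was called at limma adjusted p = 0.049, and that call was lost after quantile normalization (0.085), cyclic loess (0.089) and median centring (0.05), with all rows (0.077), a trended robust prior (0.07) or array weights (0.051), and without each array of the non-manipulated, Trim21 mRNA, and Trim21 mRNA and antibody groups (0.058 to 0.22). With an array left out the interaction was -2.36 to -1.66.

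Spopfm2 and Spopfm3, SPOP-like genes of the same cluster, went another way. Spopfm2 levels were 9.55 and 9.38 in non-manipulated pools, 8.63 and 8.89 with Trim21 mRNA, 10.57 and 10.77 with both agents, and 9.52 and 9.65 with antibody alone. Here the pools with both agents were apart, above all others. With the antibody Spopfm2 rose by 1.91 ± 0.17 with Trim21 mRNA (limma adjusted p = 0.00039), and without it the difference was 0.12 ± 0.17 (0.64). Spopfm3, annotated as a pseudogene, rose by 1.34 ± 0.18 with Trim21 mRNA (limma adjusted p = 0.002) and differed by 0.00 ± 0.18 without it (0.99). Their interactions were 1.79 ± 0.24 and 1.34 ± 0.25 (limma adjusted p = 0.013 and 0.035). Each was lost without either array of the non-manipulated or Trim21 mRNA group, at adjusted p of 0.063 to 0.2, and also without Trim21 mRNA and antibody replicate 2 for Spopfm2 (0.051) and replicate 1 for Spopfm3 (0.072). Tdpoz8, Tdpoz9, Spopfm1 and Spopl were not called for either antibody effect, with differences of -0.11 to 0.86.

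The genes between S100a10 and Them4 in RefSeq order were described after the values were seen. RefSeq GRCm38.p6 lists 29 genes there, 19 of them pseudogenes and 8 protein-coding, and 12 have a row of their own, the 4 members and 8 others. Of those 8, with Trim21 mRNA the antibody gave 5 called higher and 1 lower, beside 8.73% and 14.5% of all genes, and without it 3 higher and none lower, beside 2.76% and 7.29%. The row of the pseudogene Gm4982 followed that of Tdpoz3 on the 8 arrays: 10.97 and 10.99 in non-manipulated pools, 10.58 and 10.20 with Trim21 mRNA, 11.97 and 11.31 with both agents, and 13.45 and 12.72 with antibody alone. The root mean square difference of the centred profiles was 0.07. Whether the rows detect separate transcripts was not tested, since near-identical copies can share probes. The rows of Gm5852 and Gm9116 were alike too, with a root mean square difference of 0.05, and that of Tdpoz1 and Tdpoz9, whose start windows are near-identical, was 0.20.

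With Trim21 mRNA, genes of the cluster were called in both directions. Gm9141, a pseudogene, had 14.87 and 15.07 in non-manipulated pools, 14.51 and 14.60 with Trim21 mRNA, 12.97 and 11.84 with both agents, and 15.79 and 15.90 with antibody alone. It had the same highest and lowest groups as Tdpoz2, with a fall of 2.15 ± 0.34 by the antibody with Trim21 mRNA (limma adjusted p = 0.0046), a difference of 0.88 ± 0.34 without it (0.16) and an interaction of -3.02 ± 0.48 (0.021). That interaction was lost after median centring (0.05) and without either array of the non-manipulated or Trim21 mRNA group (0.10 to 0.12). Gm5852 rose with the antibody by 1.52 ± 0.23 with Trim21 mRNA and by 1.13 ± 0.23 without it (limma adjusted p = 0.004 and 0.029), and Gm9116 by 1.40 ± 0.23 and 1.08 ± 0.23 (0.0055 and 0.032). Without Trim21 mRNA these calls were lost without either array of the non-manipulated or Trim21 mRNA group (0.074 to 0.21), and for Gm9116 also without either Trim21 mRNA and antibody array (both 0.052). With Trim21 mRNA, Gm9116 lost its call without Trim21 mRNA replicate 1 (0.051). Of the genes at the edges, S100a10 was not called for either antibody effect, and Them4 fell by 2.00 ± 0.32 and 1.61 ± 0.32 (limma adjusted p = 0.0048 and 0.026).

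**Figure D4:**
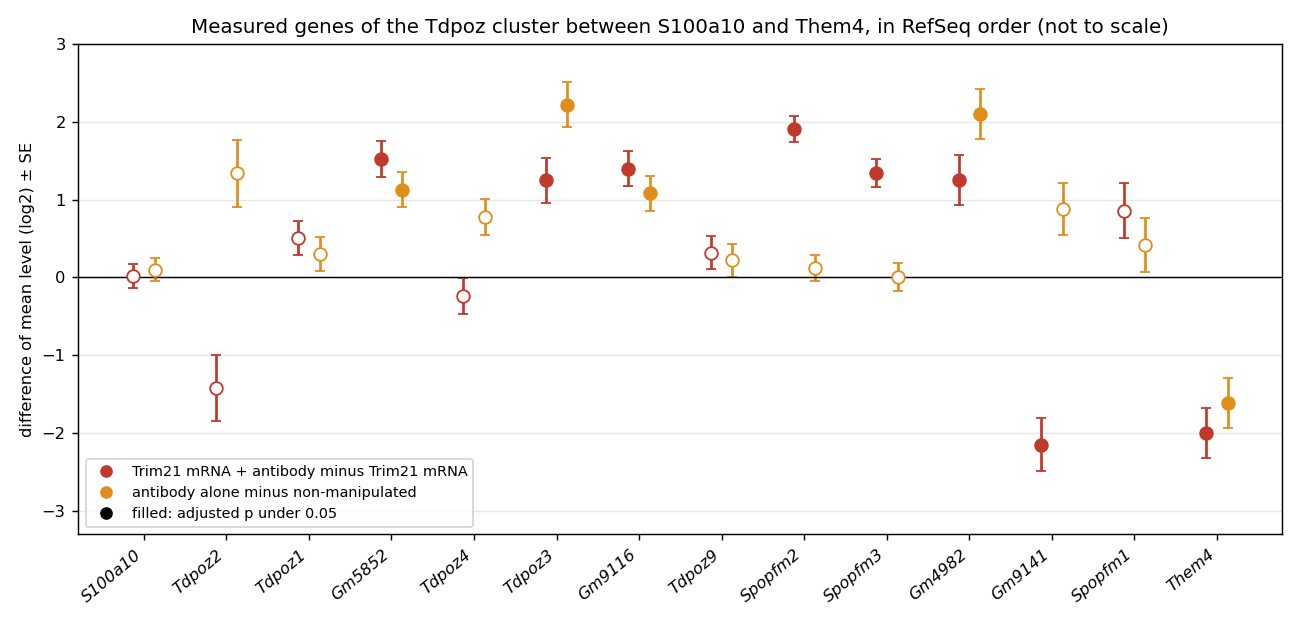
Difference of mean log2 level ± SE (y axis) for the measured genes of the Tdpoz cluster and the genes at its edges in RefSeq order (x axis, not to scale), for the antibody effect with Trim21 mRNA (red) and without it (orange). Filled points have a limma adjusted p under 0.05: Tdpoz3 and Gm4982 are alike in both, while Tdpoz2 and Gm9141 are below 0 with Trim21 mRNA and above 0 without it.

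Likeness of profiles was measured as the root mean square, over 8 arrays, of the difference between profiles each centred on its own mean, where 0 is identity. Between members it was 0.48 to 1.19, and the profiles themselves had root mean squares of 0.31 (Tdpoz1), 1.06 (Tdpoz2), 1.06 (Tdpoz3) and 0.37 (Tdpoz4). In each pair the members thus differed by more than the flatter profile of the pair varied. Among 17189 genes with formal symbols, the nearest to Tdpoz3 was Psg17, a pregnancy-specific glycoprotein gene, at 0.18, and to Tdpoz2 Timm8a2, of the family of small mitochondrial import chaperones, at 0.33. Psg17 and Timm8a2 were picked by these same values, so their group differences follow from the choice and are no separate result. With the antibody Psg17 differed by 1.62 with Trim21 mRNA and by 2.18 without it. From antibody alone to both agents Timm8a2 was lower by 2.80. The nearest to Tdpoz4 was Calm4, a calmodulin-like gene, at 0.16, and to Tdpoz1 Slc6a19, a neutral amino acid transporter gene, at 0.05. The row of Calm4 lies near the array medians, at 4.64 to 5.55. That of Slc6a19 lies below the median of every array, at 3.97 to 4.89. The genes nearest to the members' mean profile were Unc119 (0.11), Ephx3 (0.11), Lbx1 (0.12), Hnmt (0.14) and Aaas (0.14), beside 0.53 for that profile itself.

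Of a list of 37 CUL3 ligase parts and BTB adaptors, the machinery SPOP works with, 34 were measured. With the antibody in the presence of Trim21 mRNA, 3 were called higher and 11 lower, beside 8.73% and 14.5% of all genes, with a median of 0.01 beside 0.21 for all genes. The counts moved with an array left out, as did the number of all genes called. Quantile normalization gave 7 and 9, cyclic loess 6 and 9, and median centring 0 and 13. Over all genes these settings gave 3212 and 3786, 2891 and 3803, and 876 and 5364, against 2679 and 4447 in the main fit. Nedd8, the cullin modifier, fell by 2.99 ± 0.26, Cul3, the scaffold, by 1.88 ± 0.18, and Klhl21, a BTB adaptor, by 2.60 ± 0.21 (limma adjusted p = 0.00032, 0.00052 and 0.00027). Without Trim21 mRNA 3 were called higher and 3 lower, beside 2.76% and 7.29% of all genes. These became 0 and 0 with only the groups compared, where 0 of all genes were called, and moved too with an array left out. In the main fit without Trim21 mRNA, Klhl21 fell by 1.58 ± 0.21 (limma adjusted p = 0.0082). Cul3 (0.08 ± 0.18, limma adjusted p = 0.77) and Nedd8 (-0.82 ± 0.26, 0.096) were not called. Between the antibody groups, 1 was called higher and 11 lower with Trim21 mRNA, beside 4.37% and 10.5% of all genes. The 11 became 6 with array weights or only the groups compared, and 14 after median centring. All genes called lower were 1645, 1177 and 3535 there, against 3216 in the main fit. Leaving out an array moved the 11 too. The list holds Spop.

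Transcripts that are, like Tdpoz, briefly abundant at the 2-cell stage formed a list of 22 genes outside the family, 19 of them measured. With Trim21 mRNA the antibody gave 15 called higher and 3 lower, beside 8.73% and 14.5% of all genes, with a median of 1.82 beside 0.21 for all genes. Tcstv3 rose by 1.82 ± 0.21, whereas Calcoco2 fell by 5.59 ± 0.32 and Sp110 by 2.13 ± 0.16 (limma adjusted p = 0.0012, 8.9e-05 and 0.00019). Without Trim21 mRNA the list had 3 called higher and 2 lower, beside 2.76% and 7.29% of all genes, with a median of 0.60 beside 0.18. That median was 1.2 with antibody-alone replicate 1 left out and 0.12 with replicate 2 left out. The list's mean level was 10.63 and 11.58 in the antibody-alone pools, which were thus unlike each other. It was 10.65 and 10.52 in non-manipulated pools and 11.87 and 11.84 with both agents. The counts moved with the arrays used, as did the number of all genes called. After median centring, 9 were called higher with Trim21 mRNA, beside 876 of all genes, against 2679 in the main fit. Without Trim21 mRNA it gave 1, beside 352 of all genes, against 846. Comparing the antibody groups, 11 were called higher with Trim21 mRNA and 4 lower, beside 4.37% and 10.5% of all genes. The 11 became 7 with array weights, 5 after median centring and 0 with only the groups compared. All genes called higher were 356, 796 and 231 there, against 1343 in the main fit. With an array left out the 11 moved too, mostly down. Near-identical copies in this list can share probes.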

How the data were processed

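Per the submitters' processing notes, Affymetrix Expression Console made the deposited values, with no version or summarisation method given. The labels name a GeneChip WT Pico kit for the biotinylated cDNA. The authors deposited log2 levels per transcript cluster, and no unit, filter or genome build is stated in the sources used here. Of 65956 rows, 1 was left out because its cell in non-manipulated replicate 1 held a whole number over 100, which no log2 level can be. The array's annotation named 1 gene on 31257 rows, several on 1492 and none on 33206. For 441 genes on several rows, the row with the highest mean over the 8 arrays was used, which left 30701 genes. Nothing was renormalized or filtered.

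In R 4.3.3, limma 3.58.1 (lmFit and eBayes, tests two-sided) was fitted with 4 group means on all 8 arrays, which left 4 residual and 6.83 total degrees of freedom. The script was tested on simulated data. The precision is limited by 2 arrays a group. No exact test of 2 against 2 can reach the threshold. Alternatives were quantile normalization, median centring, cyclic loess, a filter on low mean level, the mean of a gene's rows, all rows, a trended robust prior, only the groups compared, a block of replicate numbers, and leaving out each array. Array weights were chosen after seeing the data.

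Named genes were the members, other genes whose symbol starts with Tdpoz or Spop, the 5 genes nearest to the members' mean profile and the nearest to each member, and up to 3 called genes of each list with the smallest p with Trim21 mRNA. Genes of the cluster on chromosome 3 were chosen after their values were seen. Members and lists were chosen with earlier results of these data known. Start windows and gene order are from RefSeq, build GRCm38.p6.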

Additional observations from a re-analysis of the deposited data

Results flagged for a closer look

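Among the relatives and cluster genes, 4 genes and 1 shared row were called in the interaction test of limma, and are listed because they passed. The genes looked through, besides the members, were the 8 others of the cluster with their own row, and Spop, Spopl and Tdpoz8. Rows of the family not used for a gene were looked through too. Of all genes 4.08% were called. No Tdpoz member passed that test. Each of the 4 gene calls was lost in some alternatives, as given above. The shared row was not run in the alternatives. For Spop the difference between the antibody effects was -2.01 (limma adjusted p = 0.049). For Spopfm2 and Spopfm3 it was 1.79 and 1.34 (0.013 and 0.035). For the pseudogene Gm9141 it was -3.02 (0.021). For the row shared by Tdpoz2 and Gm5773 it was -3.07 (0.03 over all rows), beside -2.75 for the row of Tdpoz2 alone (0.064). So Spop, Gm9141 and the shared row had the lower antibody effect with Trim21 mRNA, and Spopfm2 and Spopfm3 the higher. Each group came from a day of its own, and day and group cannot be told apart.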

How the results depend on the processing

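Over 18 alternatives (17 for the interaction, for which only the groups compared could give no other fit), 428 of 500 member values kept their direction and their side of the threshold. Values uncalled in both fits count as kept. Of the rest, 32 lost the call, 26 gained one and 14 changed sign, none of the last called. The 32 all fell on main calls. With both agents Tdpoz1 lost its call in 10 of 18 alternatives and Tdpoz2 in 8. Tdpoz3 lost its antibody call in 6 with Trim21 mRNA and in 3 without it, and that between the antibody groups in 5. The cause of these changes was not tested, except that fewer arrays or genes were used in some. The share of all tested genes called moved too. For the antibody with Trim21 mRNA it was 23.2% in the main fit. It was 41.6% with the low-level filter, 35.5% with only the groups compared and 38.9% with array weights. After quantile normalization and cyclic loess it was 22.8% and 21.8%. Between the antibody groups it was 14.8% in the main fit, 4.6% with only the groups compared and 6.5% with array weights. There it was 15.9% and 14.4% after quantile normalization and cyclic loess. Calls of members, 1 with the antibody under Trim21 mRNA, became 2 after quantile normalization, cyclic loess, the low-level filter, only the groups compared and array weights, and 0 to 3 with an array left out. Without Trim21 mRNA, 1 became 0 with only the groups compared and 0 to 3 with an array left out. Between the antibody groups, 2 became 1 after quantile normalization, cyclic loess, only the groups compared and array weights, and 1 to 3 with an array left out. For both agents against non-manipulated embryos, 2 became 1 after median centring, with all rows and with a trended robust prior, and 0 to 3 with an array left out. Antibody alone against Trim21 mRNA gave 1 to 2 with an array left out. The interaction gave 1 after median centring and the low-level filter (Tdpoz2), and 0 to 1 with an array left out.

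Among the members, their relatives and the named genes of the lists, these signs turned, with no value called. After quantile normalization and cyclic loess, Tdpoz4 differed by 0.53 and 0.46 for the antibody with Trim21 mRNA and by 0.79 and 0.69 for both agents, and Spopfm3 by 0.25 and 0.25 for the antibody without Trim21 mRNA. Tdpoz2 differed by 0.04 for Trim21 mRNA without antibody after quantile normalization. After median centring Tdpoz1 differed by -0.08 for antibody alone against Trim21 mRNA and Tdpoz9 by -0.01 for the antibody with Trim21 mRNA. For the antibody without Trim21 mRNA it gave -0.17 for Spopfm2, -0.07 for Tdpoz9, -0.21 for Cul3 and -0.05 for Tcstv3. With an array left out, ranges that crossed 0 were -0.30 to 0.24 for Tdpoz4 with both agents, -0.24 to 0.16 and -0.05 to 0.48 for Tdpoz2 and Tdpoz4 with Trim21 mRNA alone, -0.16 to 0.34 for Tdpoz1 in antibody alone against Trim21 mRNA, and -0.04 to 0.46 for its interaction. For the antibody without Trim21 mRNA they were -0.10 to 0.08 for Spopfm3, -0.20 to 0.10 for Spopl and -0.08 to 0.24 for Cul3, and with it -0.26 to 0.04 for Spopl.

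The replicate numbers did not pair the pools: deviations of same-numbered pools correlated at -0.191 to 0.143 over genes. With the number as a block, 0 members were called for both agents against non-manipulated embryos, with limma adjusted p of 0.064 for Tdpoz1 and 0.069 for Tdpoz2, and no other member call changed. The number of all genes called ranged over the alternatives from 3366 to 14193 (7126 in the main setting) for the antibody with Trim21 mRNA, from 0 to 13791 (3083) without it, from 0 to 3739 (1) for Trim21 mRNA without antibody and from 1408 to 10443 (4559) with it. It ranged from 3934 to 17538 (9742) for both agents, from 921 to 11495 (4148) for antibody alone against Trim21 mRNA and from 99 to 5663 (1253) for the interaction.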
